A study of Homo sapiens with 4 samples.

Results

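The genes described here are 36 genes of cholesterol synthesis, cholesterol transport and the SREBP and LXR control circuits. They were picked by symbol for their known roles, by a rule that uses no measured value but was written with earlier results of these data known, and all 36 are among the 20137 genes measured. The cells were MDA-MB-231, a mesenchymal-like human breast cancer line that lacks the hormone receptors, grown in L-15 medium with 10% fetal bovine serum and antibiotics. The knockdown group (2 libraries, genotype AURKA KD, titles shA) had reduced AURKA, the mitotic kinase Aurora A, and the control group (2 libraries, genotype control, titles shC) was mock-transfected according to the series design. The sources used here do not say how the knockdown was delivered or whether the cells were a clone. The title asks which genes AURKA regulates at the transcript level.

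Cholesterol is built from acetyl-CoA through mevalonate, farnesyl diphosphate, squalene and lanosterol. SREBP-2, encoded by SREBF2, switches these enzymes on when membrane sterols are low: SCAP carries the precursor from the endoplasmic reticulum to the Golgi, INSIG proteins hold it back when sterols are plentiful, and the proteases encoded by MBTPS1 and MBTPS2 release the active factor. SREBP-1, encoded by SREBF1, mainly drives fatty acid synthesis. The LXR receptors answer to oxysterols and switch on export, with ABCA1 and ABCG1 as classical targets, so the circuits are usually seen as opposing each other.

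Levels are given in FPKM, fragment numbers divided by transcript length and library depth, and summed over a gene's transcripts, and differences are on the log2(FPKM + 1) scale, knockdown minus control. Depth was not given and was estimated only roughly, at 17400000 to 27600000 fragments per library, from the 80 to 117 long genes per library whose values lay near that of 1 fragment, and mitochondrial transcripts took 16% to 19% of the summed FPKM, most in knockdown replicate 1. Each replicate number is called a run below, as a name only: the labels do not say what the number marks, and the files show only that tables of 1 number share their row order and transcript set, with 81 of the transcripts of either number missing from the other. The difference within each run and the limma fit with the run as a term are given beside the fit without it. What else separates the runs was not tested. With 2 libraries per group, p-values measure the spread between these libraries only. AURKA had 124 and 99.1 FPKM without and 22.3 and 23.7 FPKM with the knockdown (log2 difference -2.22, adjusted p 0.0819 in limma without the run and 0.000696 with it). Of 6 markers of the line, VIM stood at 1701 to 2068 FPKM, and 1, AXL, fell in the fit that holds the run (292 and 318 against 227 and 231 FPKM, adjusted p 0.0469). Of 5 luminal genes, CDH1, ESR1 and PGR reached at most 0.271 FPKM, while FOXA1 had 4.15 to 5.66 FPKM and GATA3 2.07 to 2.36 FPKM. Of markers of other cells, ALB and HBB were listed at 0 and PTPRC reached at most 0.012 FPKM. In bulk RNA, fewer cells of one state and less RNA per cell cannot be told apart.

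Most cholesterol genes were higher in the knockdown. All 36 passed the filter on low values (at least 1 FPKM in at least 2 libraries), and 34 had a mean log2 difference above 0, against 52.3% of the 12136 genes tested. The median log2 difference of the members came to 0.35, with 0.31 in run 1 and 0.39 in run 2, against 0.01 over all tested genes. It was 0.23 when control replicate 2 was left out, with 26 of the 36 above 0, and 0.25 with 30 of 36 above 0 without knockdown replicate 1. Fits that leave out 1 library, here and below, held no run term, so differences between the runs enter them. In 28 members the knockdown was above the control in both runs, against 35.3% of all tested genes. In 2 members, LBR and NR1H2, it was below in both, against 31.7%. The groups did not overlap in 19 members, each with both knockdown libraries above both controls, against 19.4% of all genes in that direction. None had both below, against 16.6%.

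With the run as a term, 9 members rose at an adjusted p under 0.05 and 0 fell, against 1.53% of all tested genes called higher and 1.90% called lower. They were the synthesis enzymes LSS, DHCR7, HMGCS1, MVK and CYP51A1, the regulators SREBF1 and SREBF2, and the LXR genes NR1H3 and ABCA1. Limma without the run, which was the main fit, called 0 members and 0% of all tested genes in either direction. At an unadjusted p under 0.05 that fit had 13 members higher and 0 lower, against 3.05% and 3.32% of all tested genes. The smallest adjusted p among the members was then 0.365, for LSS. The 9 calls made with the run became 0 with no filter on low values, 16 with upper-quartile scaling and 2 with only the transcript of highest mean over the 4 libraries for each gene. The words rose and fell are used below for genes past the threshold with the run as a term, and none of these passed the main fit without it. Standard errors given below are also of the fit with the run. For these 9 genes those of the fit without it were larger, at 0.126 (DHCR7) to 0.254 (NR1H3).

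**Figure D1:**
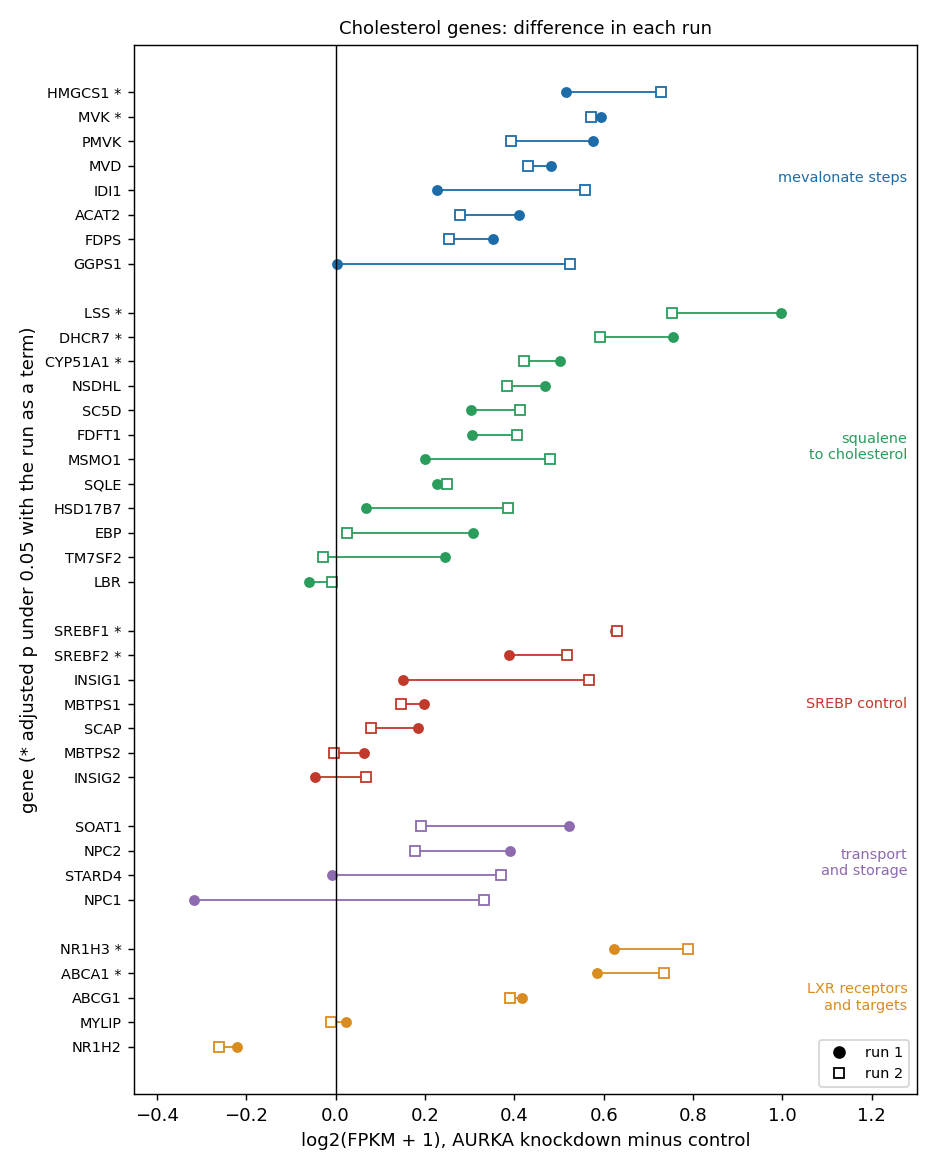
Difference between knockdown and control on the log2(FPKM + 1) scale (horizontal axis) for each of the 36 genes (rows, grouped by role), with filled circles for run 1 and open squares for run 2, 1 library per group in each. Both symbols lie right of 0 for 28 genes and left of it for LBR and NR1H2, and asterisks mark the 9 genes past the threshold with the run as a term.

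The promoters of the members that rose are shown first, since the genes of this pathway are known to share promoter elements. SREBP binds sterol regulatory elements, usually beside sites for NF-Y, which binds CCAAT, and for Sp1, which binds GC boxes. RefSeq promoters (GRCh38.p14, 250 bases before to 50 after a start) were found for 32 of the 36 members. On both strands, CCAAT stood in at least 1 promoter of 14 of 17 synthesis enzymes (82.4%), of 2 of 7 genes of SREBP control and of 21 of 32 members in all (65.6%), against 39.7% of all genes with a promoter in the table. The Sp1 box GGGCGG stood in 28 of 32 members (87.5%), against 48.3% of all genes. In this paragraph, all genes are the 27305 genes with a promoter, whether or not they were expressed here. All members passed the filter on low values, so the sets are unlike in this respect. The sterol element TCACNCCAC was found in 1 member, SREBF2, and in 1.39% of all genes. Only exact matches to this word in these windows were counted, so a missing match does not show that a gene lacks a sterol element. An exact LXR element, 2 copies of AGGTCA with 4 bases between them, was in 0 of the members' promoters and in 0.0256% of all genes. None of these words contains another, and a match is a description of the sequence, not a site shown to be bound.

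Stretches upstream of the start are given for 4 of these genes, 5′ to 3′ on the gene's strand, with CCAAT (or ATTGG, its reverse complement) and the sterol element in capitals. They are SREBF2, which holds the sterol element, at chr22:41832952-41833013 on the plus strand; HMGCS1 at chr5:43313498-43313587, DHCR7 at chr11:71448427-71448507 and LSS at chr21:46228910-46228944, all on the minus strand.
SREBF2: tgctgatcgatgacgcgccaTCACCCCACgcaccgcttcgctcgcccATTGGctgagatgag
HMGCS1: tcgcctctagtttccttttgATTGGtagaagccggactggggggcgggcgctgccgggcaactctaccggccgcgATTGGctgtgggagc
DHCR7: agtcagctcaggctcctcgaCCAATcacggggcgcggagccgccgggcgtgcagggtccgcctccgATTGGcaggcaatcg
LSS: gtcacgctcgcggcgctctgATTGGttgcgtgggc
In SREBF2 the sterol element began 133 bases before the start and the CCAAT box, on the other strand, 106 before it. HMGCS1 and DHCR7 each held 2 CCAAT boxes, LSS held 1, and the promoter of MVK held 5. Of the other members that rose, NR1H3 had a CCAAT box 28 bases before 1 of its starts. CYP51A1, SREBF1 and ABCA1 had no CCAAT in these windows. The Sp1 box stood in at least 1 promoter of each of the 9 members that rose.

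All 8 genes of the mevalonate steps were higher in the knockdown in both runs, against 35.3% of all tested genes (median log2 difference 0.43, range 0.26 to 0.62). HMGCS1, which makes HMG-CoA at the head of the pathway (ENSG00000112972, chromosome 5 at 43289496 to 43313614, GRCh37), had 29.3 and 23.7 FPKM without and 42.3 and 40.0 FPKM with the knockdown. It was 1.55-fold higher, with groups far apart (log2 difference 0.62, 0.52 and 0.73 in the runs, standard error 0.09, adjusted p 0.0243 with the run and 0.537 without). MVK, the mevalonate kinase (ENSG00000110921, chromosome 12 at 109991541 to 110035067), was at 13.2 and 13.6 against 20.5 and 20.7 FPKM (log2 difference 0.58, standard error 0.10, adjusted p 0.0319 and 0.518). Its libraries were nearly equal inside each group, and the fold was 1.53. MVK and MMAB are given the same locus, 1 interval for both, so these coordinates are not those of MVK alone. How far the genes overlap is not given, and reads of overlapping stretches cannot be told apart.

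The next enzymes of the mevalonate route lay just outside the threshold with the run as a term. PMVK, phosphomevalonate kinase, had 11.3 and 13.1 against 17.3 and 17.5 FPKM (adjusted p 0.0609), and MVD, the decarboxylase that yields isopentenyl diphosphate, had 13.3 and 10.7 against 19.0 and 14.8 FPKM (adjusted p 0.0631). Both had knockdown libraries above both controls. ACAT2, the cytosolic thiolase, overlapped between groups at 29.4 and 42.4 against 39.3 and 51.7 FPKM, and its log2 difference went from 0.35 to 0.09 without control replicate 1. Its locus holds 3 other genes, of which TCP1 was lower in both runs (197 and 264 against 172 and 221 FPKM, adjusted p 0.16). WTAP was higher in both (29.9 and 41.4 against 35.3 and 46.6 FPKM, adjusted p 0.225), and SOD2 went opposite ways. IDI1, the isopentenyl diphosphate isomerase (37.5 and 35.4 against 44.1 and 52.5 FPKM), was higher by 0.23 in run 1 and by 0.56 in run 2.

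Farnesyl diphosphate is the branch point to dolichol, ubiquinone and protein prenylation. FDPS, which makes it, was the most abundant enzyme of this group at 79.9 and 86.5 FPKM without and 102.3 and 103.4 FPKM with the knockdown (1.24-fold, adjusted p 0.0875 with the run). GGPS1, which leads off to geranylgeranyl diphosphate and away from sterols, had the smallest difference of the group: 9.43 and 6.56 against 9.46 and 9.87 FPKM. In run 1 its knockdown and control values were nearly equal (log2 difference 0.004), and only run 2 set them apart (0.52).

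**Figure D2:**
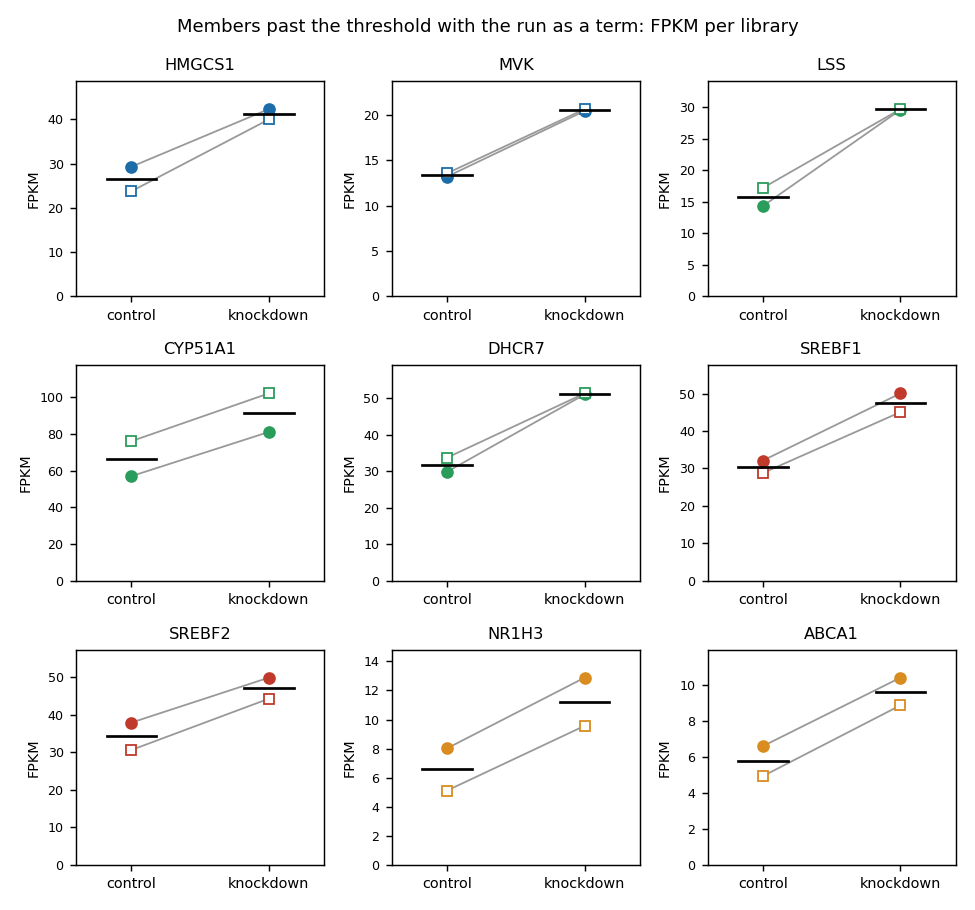
FPKM (vertical axes, from 0) in each library for the 9 members past the threshold with the run as a term: filled circles are run 1, open squares run 2, grey lines join the libraries of a run, and black bars are group means (n = 2 each). In each panel both knockdown libraries lie above both controls, and the largest ratio of means is that of LSS, 1.88.

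From squalene to cholesterol, 11 of 12 genes had a higher mean (median log2 difference 0.35), and the order of the enzymes along the route was not the order of their differences. LSS, which closes squalene epoxide into lanosterol, showed the largest difference of all 36 members. It stood at 14.3 and 17.2 FPKM without and 29.6 and 29.7 FPKM with the knockdown, 1.88-fold (log2 difference 0.87, 0.997 and 0.75 in the runs, standard error 0.10, adjusted p 0.0121 with the run and 0.365 without). The files place LSS (ENSG00000160285) on chromosome 21 at 47608054 to 47648738 (GRCh37), a locus it shares with AP001468.1, which had 1.86 and 1.51 against 3.98 and 2.63 FPKM. The enzymes before LSS differed less. FDFT1, squalene synthase, had 72.1 and 51.8 against 89.3 and 69.0 FPKM, with groups that overlap (adjusted p 0.0639). SQLE, the squalene epoxidase and a control point of the pathway, had 8.81 and 8.38 against 10.5 and 10.2 FPKM (1.20-fold, adjusted p 0.27). The difference of SQLE was alike in the runs, at 0.23 and 0.25, and small.

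The steps after lanosterol include 2 genes that rose. CYP51A1, the lanosterol demethylase (ENSG00000001630, chromosome 7 at 91741464 to 91808845, a locus shared with LRRD1), had 57.0 and 76.1 against 81.1 and 102.2 FPKM (log2 difference 0.46, standard error 0.08, adjusted p 0.0326 with the run and 0.781 without). Run 2 was higher than run 1 in both groups, so the lower knockdown library stood only just above the higher control. The difference was 0.26 without control replicate 1 and 0.30 without knockdown replicate 2. DHCR7, which performs the last reduction to cholesterol (ENSG00000172893, chromosome 11 at 71139238 to 71163914), had 29.8 and 33.7 against 51.0 and 51.3 FPKM, 1.61-fold (log2 difference 0.67, standard error 0.09, adjusted p 0.0157 and 0.406). The knockdown libraries of DHCR7 were nearly equal and far above both controls.

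Among the enzymes between them, NSDHL, a sterol dehydrogenase, had 13.7 and 16.9 against 19.3 and 22.4 FPKM (adjusted p 0.0664) and SC5D, the desaturase before DHCR7, had 14.6 and 15.1 against 18.2 and 20.4 FPKM (adjusted p 0.102). Neither passed, and in both the groups did not overlap. MSMO1, the methyl sterol oxidase, had 57.7 and 35.6 against 66.5 and 50.02 FPKM, and without control replicate 2 its difference was -0.001. HSD17B7, a ketoreductase (19.5 and 14.6 against 20.5 and 19.3 FPKM), and EBP, the sterol isomerase (18.7 and 20.9 against 23.3 and 21.3 FPKM), were 1.17-fold and 1.13-fold higher without passing. The log2 difference of HSD17B7 went from 0.23 to 0.03 without control replicate 2, and that of EBP from 0.17 to 0.09 without control replicate 1. FDPS, CYP51A1 and HSD17B7 have pseudogene copies, so reads may have been split between near-identical sequences.

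The sterol reductase step can be carried out by LBR or TM7SF2, and neither followed the other enzymes. LBR, which is also a receptor of the nuclear lamina, had 47.3 and 44.4 against 45.3 and 44.2 FPKM (log2 difference -0.03, adjusted p 0.848 with the run). TM7SF2 had 11.4 and 7.75 against 13.7 and 7.59 FPKM, with a difference of 0.24 in run 1 and -0.03 in run 2. LBR was thus the 1 synthesis enzyme with a lower mean.

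Of the 7 genes of SREBP control, the 2 transcription factors rose and the 5 genes that hold, carry or cleave them did not pass. Over all tested genes, 1.53% were called higher. SREBF1 (ENSG00000072310, chromosome 17 at 17715068 to 17740325) had 32.1 and 28.8 FPKM without and 50.1 and 45.1 FPKM with the knockdown, 1.56-fold (adjusted p 0.0166 with the run and 0.465 without). Its difference was nearly the same in both runs (0.625 and 0.630, standard error 0.08). SREBF2 (ENSG00000198911, chromosome 22 at 42227218 to 42303312) had 37.9 and 30.6 against 49.96 and 44.3 FPKM, 1.37-fold, with a log2 difference of 0.45 (0.39 and 0.52 in the runs, standard error 0.09, adjusted p 0.0439 and 0.674). SREBF2 was near the threshold: with a pseudocount of 0.1 in place of 1, SREBF2 and ABCA1 no longer passed and 7 members did.

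INSIG1, an SREBP target that retains SCAP in the endoplasmic reticulum, was the most abundant of these genes and the most variable between runs. It had 69.4 and 35.2 FPKM without and 77.1 and 52.7 FPKM with the knockdown, so the groups overlapped (difference 0.15 in run 1 and 0.57 in run 2, adjusted p 0.131 with the run). Without control replicate 2 its difference was -0.12. INSIG2, its paralog with the same retaining role, had 13.1 and 11.9 against 12.7 and 12.5 FPKM, a log2 difference of 0.01.

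The carrier and the proteases differed little between groups and did not pass, though both knockdown libraries of MBTPS1 lay above both controls. SCAP had 16.3 and 14.7 against 18.7 and 15.6 FPKM, MBTPS1, the first protease, had 32.0 and 33.1 against 36.8 and 36.7 FPKM, and MBTPS2, the second, had 18.8 and 19.4 against 19.6 and 19.4 FPKM. Their ratios of means were 1.11, 1.13 and 1.02, and the adjusted p with the run was 0.48, 0.286 and 0.886.

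**Figure D3:**
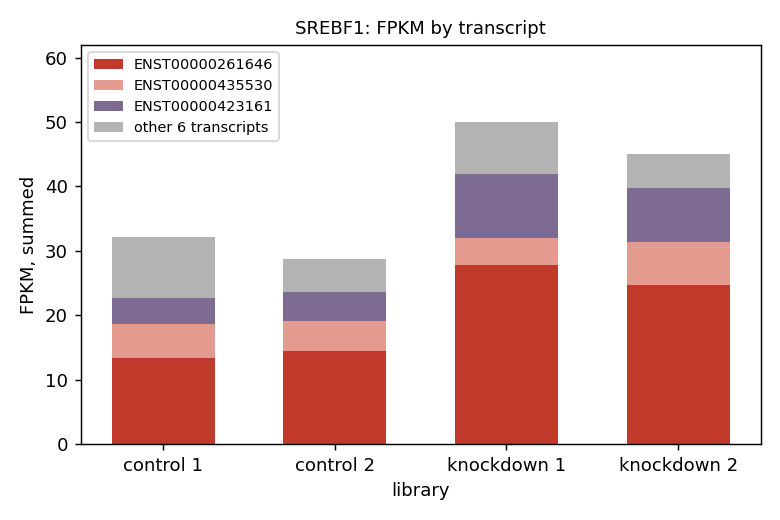
FPKM of SREBF1 in each library (horizontal axis), stacked from the 3 transcripts with the highest mean in the controls (ENST00000261646, ENST00000435530 and ENST00000423161) and the sum of the other 6. ENST00000261646 stands at 13.4 and 14.4 FPKM in the control bars and at 27.8 and 24.7 FPKM in the knockdown bars.

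The transcript values of SREBF1 are given as far as the authors' estimates separate isoforms, with transcripts ranked by their mean in the controls so that the knockdown libraries had no part in the ranking. The leading ENST00000261646, 4178 bases long in GENCODE 29, had 13.4 and 14.4 FPKM without and 27.8 and 24.7 FPKM with the knockdown. The second, ENST00000435530, had 5.25 and 4.65 against 4.11 and 6.63 FPKM, with groups that overlap. The third, ENST00000423161, a transcript of 1058 bases, had 4.13 and 4.51 against 9.92 and 8.37 FPKM. The other 6 together had 9.35 and 5.21 against 8.19 and 5.37 FPKM. No test was run on single transcripts. The leading transcript took 41.7% and 50.1% of the gene's FPKM in the controls and 55.6% and 54.8% in the knockdown. SREBF2 was almost a single transcript, ENST00000361204, with 98% or more of the gene in each library.

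In each of the 9 members that rose, the transcript with the highest control mean was higher in the knockdown in both runs, as it was in 28 of all 36 members. This is a description, since these genes had been called higher from the same values. For HMGCS1 the 3 transcripts kept similar shares, with the leading ENST00000325110 at 47.8% and 52.9% in the controls and 49.3% and 54.3% in the knockdown. MVK was mixed. Its leading transcript ENST00000228510 had 5.31 and 5.22 against 10.2 and 8.66 FPKM, while ENST00000392727 had 3.34 and 3.02 against 1.71 and 2.28 FPKM. NR1H3 was spread over 16 transcripts, and its leading one in the controls, ENST00000395397, rested on low values of 1.36 and 0.95 against 2.40 and 2.21 FPKM. With the transcript of highest mean over the 4 libraries in place of the sum, only LSS and SREBF1 passed in the fit that holds the run.

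Of the 4 genes of cholesterol transport and storage, 0 passed and all had groups that overlapped. Calls with the run were rare in the whole series, at 1.53% higher and 1.90% lower. Both knockdown libraries stood above both controls in 19.4% of the 12136 genes and below them in 16.6%, so overlap was the usual case. A set of 4 genes is too small for these counts to set it apart. NPC2, the lysosomal protein that takes up free cholesterol, was the most abundant of the 36 genes, at 146 and 119 FPKM without and 192 and 135 FPKM with the knockdown (adjusted p 0.123 with the run). Its log2 difference went from 0.28 to 0.03 without knockdown replicate 1. NPC1, its membrane partner, went opposite ways in the runs: 35.6 against 28.4 FPKM in run 1 and 19.0 against 24.2 FPKM in run 2. The controls of NPC1 thus lay outside the range of the knockdown libraries on both sides, and its mean was 0.963-fold the control in FPKM and 0.01 above it on the log2 scale. C18orf8, at the same locus as NPC1, was lower in both runs (17.0 and 13.5 against 10.1 and 10.3 FPKM, adjusted p 0.0694). STARD4, a cytosolic sterol carrier, had 40.2 and 30.1 against 40.0 and 39.2 FPKM, with a difference of -0.01 in run 1 and 0.37 in run 2. SOAT1, which esterifies cholesterol for storage in droplets, had 21.3 and 34.7 against 31.1 and 39.8 FPKM (1.27-fold, adjusted p 0.118). The log2 difference of SOAT1 went from 0.36 to 0.02 without control replicate 1 and to 0.70 without control replicate 2.

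Among the 5 LXR genes, the receptor NR1H3 and the exporter ABCA1 rose, as did 5 of the 20 synthesis enzymes, against 1.53% of all tested genes. NR1H2 was lower in both runs, as were 31.7% of all tested genes, and its groups overlapped. NR1H3, encoding LXR alpha (ENSG00000025434, chromosome 11 at 47270466 to 47290396), had 8.02 and 5.11 against 12.9 and 9.57 FPKM, 1.71-fold (log2 difference 0.71, 0.62 and 0.79 in the runs, standard error 0.12, adjusted p 0.0325 with the run and 0.716 without). Its difference was 0.43 without control replicate 2 and 0.99 without control replicate 1. NR1H2, encoding the widely expressed LXR beta, had 41.9 and 32.9 against 35.8 and 27.3 FPKM (log2 difference -0.24, adjusted p 0.163). At the level of FPKM, NR1H2 stood above NR1H3 in all 4 libraries, and the gap was narrower in the knockdown. The difference between the receptors' responses was not tested.

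ABCA1, which loads cholesterol onto apolipoprotein A-I (ENSG00000165029, chromosome 9 at 107543282 to 107691173), had 6.62 and 4.94 against 10.4 and 8.89 FPKM, 1.67-fold (log2 difference 0.66, standard error 0.12, adjusted p 0.0405 with the run and 0.61 without). ABCG1, which exports cholesterol to mature HDL, followed in each run, with 5.42 against 7.57 FPKM in run 1 and 2.41 against 3.47 FPKM in run 2. Run 1 was over run 2 by more than the groups differed, so ABCG1 overlapped (adjusted p 0.15), and its difference was -0.05 without control replicate 2 and -0.07 without knockdown replicate 1. MYLIP, an LXR-driven ubiquitin ligase that lowers lipoprotein uptake, had 11.9 and 8.61 against 12.1 and 8.55 FPKM and a difference of 0.01.

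**Figure D4:**
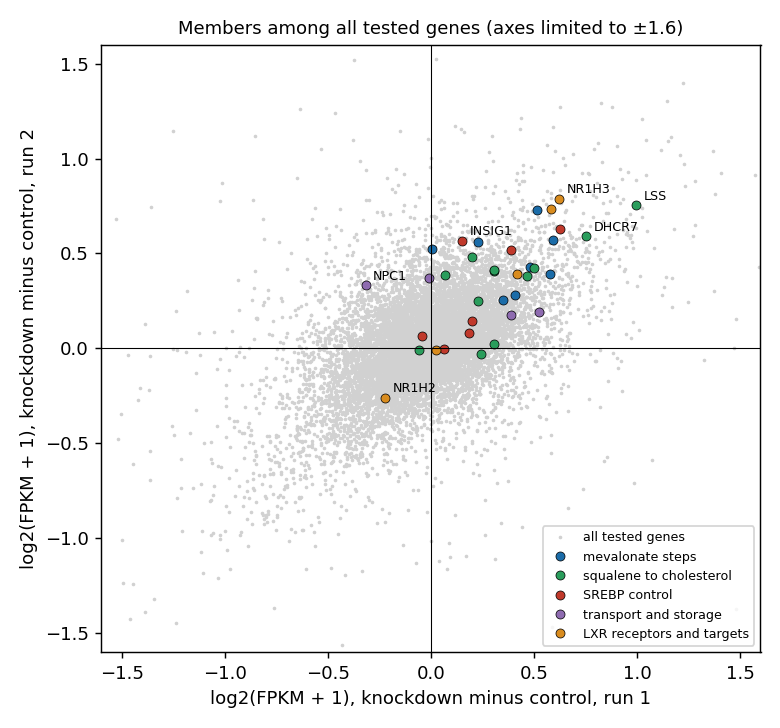
Difference between knockdown and control on the log2(FPKM + 1) scale in run 1 (horizontal axis) and run 2 (vertical axis) for all tested genes (grey) and the 36 members (coloured by role). Axes end at ±1.6, beyond which 39 genes and 0 members lie; 28 members stand in the upper right and LBR and NR1H2 in the lower left.

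Other genes of the pathway were put into 6 lists by their known roles, also with earlier results known, and the lists were not tested against each other. The 8 fatty acid genes known as SREBP targets were all higher in both runs (median 0.36), against 35.3% of all tested genes. Of these 8, 3 rose, against 1.53% of all tested genes. SCD, the stearoyl-CoA desaturase, had 102 and 118 against 185 and 193 FPKM (adjusted p 0.0087 with the run, 0.35 without), FADS2, a desaturase of polyunsaturated fatty acids, had 85.9 and 89.4 against 157 and 147 FPKM (0.0087 and 0.299), and FASN had 79.1 and 82.1 against 110.8 and 109.0 FPKM (0.0346 and 0.537).

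The 5 other lists had 0 members past the threshold in either direction. With the run as a term, 1.53% of all tested genes were called higher and 1.90% lower. In lists this short, 0 calls is near those shares. Of 12 genes of SREBP and sterol sensor turnover, 7 had a higher and 5 a lower mean (median 0.04), and the smallest p was that of RNF145, a ubiquitin ligase that responds to sterols, at 66.0 and 53.7 against 50.1 and 43.3 FPKM (adjusted p 0.0694 with the run). In the non-sterol branches of the mevalonate pathway 13 genes had a median of 0.15, 9 above and 4 below 0, with RABGGTA, a subunit of Rab geranylgeranyl transferase, at 12.1 and 12.2 against 16.6 and 15.4 FPKM (adjusted p 0.102). Among 11 tested genes of transport and lipoprotein uptake outside the 36 (median 0.15), LRP8, a lipoprotein receptor, had 22.3 and 20.4 against 29.5 and 27.1 FPKM (adjusted p 0.0661).

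Of the oxysterol and LXR partners, 4 of 6 were tested and 3 had a higher mean. SMPDL3A, a phosphodiesterase known as an LXR target, had 5.07 and 6.10 against 9.22 and 8.51 FPKM (adjusted p 0.0684 with the run). The 2 not tested, CH25H and CYP27A1, which make oxysterols, reached at most 0.508 FPKM in all 4 libraries. Of 9 enzymes beside the main route 7 were tested (median 0.14), and NCEH1, which releases cholesterol from its esters, had 36.9 and 33.6 against 28.7 and 24.7 FPKM (log2 difference -0.39, adjusted p 0.063). For NCEH1 both knockdown libraries lay below both controls.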

How the data were processed

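RNA was sequenced from 2 control and 2 AURKA knockdown libraries of MDA-MB-231 cells. Each library has its own table of transcript values, which the authors deposited and which were read here as FPKM. The header names no unit: the values are not whole and their totals differ. Of 360 to 394 low values per library, 80 to 117 lay within 0.1 (natural log) of 1 fragment. The value of 1 fragment was itself set at the densest cluster of these low values, so this count does not show the unit. Per the submitters' processing notes, bcl2fastq 2.19 and HTSeq 0.8.0 were used with build hg38. Which program computed the FPKM was not given in the sources used, and loci in the files are of GRCh37. Reads of overlapping or antisense genes cannot be told apart, and 14 members share a locus with another gene. A shared locus is an interval given to each of its genes and does not by itself show that they overlap.

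Tables were joined by transcript ID (81412 shared by all 4, with 81 found only in each run) and summed to 20137 genes. Row order was the same within a replicate number and differed between numbers, and 1707 of the shared transcripts had another locus in the other number. Genes reaching 1 FPKM in 2 or more libraries were tested together with limma 3.58.1 (R 4.3.3, trend) on log2(FPKM + 1), two-sided, and called at a Benjamini-Hochberg adjusted p under 0.05. The added 1 understates changes of low genes. The main fit had no replicate block. The code was tested on simulated data. Depth was estimated from single-transcript genes longer than 2000 bases in GENCODE 29, and no count test was run because whole reads could not be recovered where a gene has several transcripts.

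The members and lists were chosen with earlier results of these data known. Named genes are all members, members of the other lists past the threshold in either fit and otherwise the 1 with the smallest p with the run. Outside this rule, CH25H, CYP27A1, markers of the line and of other cells and the neighbours at shared loci (MMAB, AP001468.1, TCP1, WTAP, SOD2, C18orf8) were named after their values were seen. Of 19 such neighbours 14 were tested: 6 were higher in both runs, 3 lower in both and 5 went opposite ways. Only 1, MMAB, was called with the run as a term. Alternatives were another pseudocount (0.1), filter (none or 5 FPKM), scaling, transcript choice and leaving out each library.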

Additional observations from a re-analysis of the deposited data

How the results depend on the processing

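With the replicate block, AURKA was at -2.22 (adjusted p 0.000696) and 9 members and 3 genes of the other lists passed, against 0 and 0 without. With the replicate block and median-of-ratios scaling, AURKA was at -2.24 and 12 members and 7 other genes passed, while calls over all genes went from 417 to 887. Across 12136 genes, which are not independent replicates, deviations of same-numbered libraries correlated at r = 0.645, a hint from the data and not from the labels. AURKA passed without the block under median-of-ratios scaling (-2.24, adjusted p 0.0384) and when any 1 library was left out (-2.38 to -2.06), where the lone library of an arm is assumed to vary like the other arm. With the replicate number as a term, 0 members passed with no filter (and 0 of 17667 genes), 16 with upper-quartile scaling, 2 with the leading transcript only and 7 to 12 under the other alternatives, all higher; 1074 of all genes passed with upper-quartile scaling and 158 with the leading transcript. The median of the members ranged from 0.23 to 0.41 when 1 library was left out, and the difference moved by over 1.5 times in 23 members, 2 of them among those that rose with the run (CYP51A1 and NR1H3). Leaving out 1 library turned the sign of differences that had not passed: TM7SF2 (-0.28 to 0.50), LBR (-0.077 to 0.011), MSMO1 (-0.001 to 0.68), INSIG1 (-0.12 to 0.84), INSIG2 (-0.053 to 0.076), STARD4 (-0.022 to 0.38), NPC1 (-0.43 to 0.45), ABCG1 (-0.066 to 0.87) and MYLIP (-0.22 to 0.23). These fits held no run term, so a difference between the runs enters the difference between groups. Within both runs MSMO1, INSIG1 and ABCG1 were higher in the knockdown and LBR was lower. With median-of-ratios scaling, with and without the replicate block, INSIG2 was at -0.007, NPC1 at -0.011 and MYLIP at -0.012. With the leading transcript only, LBR was at 0.13, NPC1 at -0.048 and ABCG1 at -0.03. How far run differences account for the sign changes without 1 library was not tested, nor was the cause of the others. The count tests planned for counts were not run, as the files hold none. Depth is known only roughly, so no counting error is given for low values such as single transcripts of NR1H3.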

Other observations

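MMAB, an enzyme of cobalamin metabolism, lies beside MVK and is known to share a promoter with it. It had 5.82 and 7.26 FPKM without and 9.73 and 12.7 FPKM with the knockdown, 1.71-fold (adjusted p 0.0319 in limma with the run as a term and 0.582 without). MMAB was named after its values were seen. Of the 14 tested neighbours at shared loci, it was the only 1 called with the run, against 1.53% of all tested genes called higher. MVK itself was 1.53-fold higher. Both genes carry the same locus in the files, chromosome 12 at 109991541 to 110035067 (GRCh37), and how far shared reads add to either value was not tested.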
